A study of Arabidopsis thaliana with 4 samples.

Results

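FRUITFULL (FUL) is a MADS domain transcription factor of Arabidopsis thaliana that patterns the fruit and also promotes flowering. The binding of FUL was examined here at 10 genes of the network that decides when and where the plant flowers, namely *FT*, *TSF*, *TFL1*, *ATC*, *BFT*, *MFT*, *FD*, *LFY*, *CO* and *GI*. These 10 of the 27444 protein-coding genes on chromosomes 1 to 5 were taken as a list of names, not by a threshold on the scores. The list was chosen with earlier results of these data known, so that it is not independent of them. A FUL binding site of any score counted for a gene when its maximum lay inside a window that ran from 3000 bp before the start codon up to 1000 bp past the stop codon, and 3 of the 2831 sites in the deposited list did so.

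The chromatin came from pistils and siliques of stages 12 to 16, from *ful-1* plants with the pFUL:FUL-GFP transgene, in which the *FUL* promoter drives FUL fused to green fluorescent protein. The ecotype label is Col/Ler, and all 4 samples share this genotype and tissue. The labels give soil, 22 °C and long days of 16 h light and 8 h dark for growth, and about 1 g of tissue was used per replicate. There were 2 FUL-GFP ChIP samples, precipitated with a GFP antibody, and 2 input samples, in which chromatin DNA of the same tissue was sequenced as the control. The list gives 1 score per site, the enrichment over the input with both replicates combined, so that no site has an error or a replicate check and the number of reads behind it is unknown. Scores ran from 2.99 to 1071.13 with a median of 4.43, and weaker enrichment was not detectable in the list. The study applied a false discovery rate limit to name its enriched sites, but the list gives no such rate, so that it does not show which of the sites passed. The sites are therefore listed sites of enrichment, and the list does not give the significance of any of them. This applies in particular to those with a score under 5.6. The score of 5.6 was chosen with earlier results of these data known, so that reaching it does not show significance either.

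*FT* and its close relative *TSF* encode small mobile proteins of the phosphatidylethanolamine-binding family, the florigens, which travel from leaves to the shoot tip under long days. There FT acts together with the bZIP factor FD to switch on flowering genes, among them MADS-box genes such as *FUL*. *TFL1*, *ATC* and *BFT* belong to the same family but delay flowering, and *MFT* acts in seed germination. *CO* encodes the zinc finger protein that activates *FT* in long days, *GI* links the circadian clock to *CO*, and *LFY* encodes the transcription factor that gives a new meristem its floral identity.

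The sequences printed here are those around the maxima of the sites upstream of *ATC* and *GI*. Each is the TAIR10.1 reference sequence of RefSeq from 100 bp before to 100 bp after the maximum, on the forward strand, which is also the strand of these genes. In the *ATC* sequence the capitals mark a CArG box, the motif bound by MADS domain proteins (CC, then 6 bases that are each A or T, then GG). In the *GI* sequence they mark the copies of AAAATATCT, known as the evening element and bound by clock proteins, the second of which reads on the reverse strand.
ATC site, chr2:11771562-11771762: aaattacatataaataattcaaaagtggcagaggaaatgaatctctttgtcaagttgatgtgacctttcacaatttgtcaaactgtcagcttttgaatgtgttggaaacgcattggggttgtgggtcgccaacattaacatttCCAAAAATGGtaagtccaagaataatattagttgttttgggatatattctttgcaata
GI site, chr1:8060843-8061043: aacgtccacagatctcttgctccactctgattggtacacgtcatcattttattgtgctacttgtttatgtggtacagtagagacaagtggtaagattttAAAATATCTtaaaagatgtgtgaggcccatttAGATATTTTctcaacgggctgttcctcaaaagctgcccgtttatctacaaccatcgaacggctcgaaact

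Sites were listed at *ATC*, *GI* and *CO*, with 1 site each, and at none of the other 7 genes. A site in the window was present for 14.0% of all protein-coding genes, and 3 of 10 is read against that share. At a score of at least 5.6, a threshold that 846 sites of the list reached, *ATC* and *GI* remained, which is 2 of 10 genes against a background of 4.47%. With so few genes these counts describe the 10 loci and were not tested. The 3 sites lay upstream of the start codon, as did 56.4% of all 4540 pairings of sites with protein-coding genes in the whole list.

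**Figure D1:**
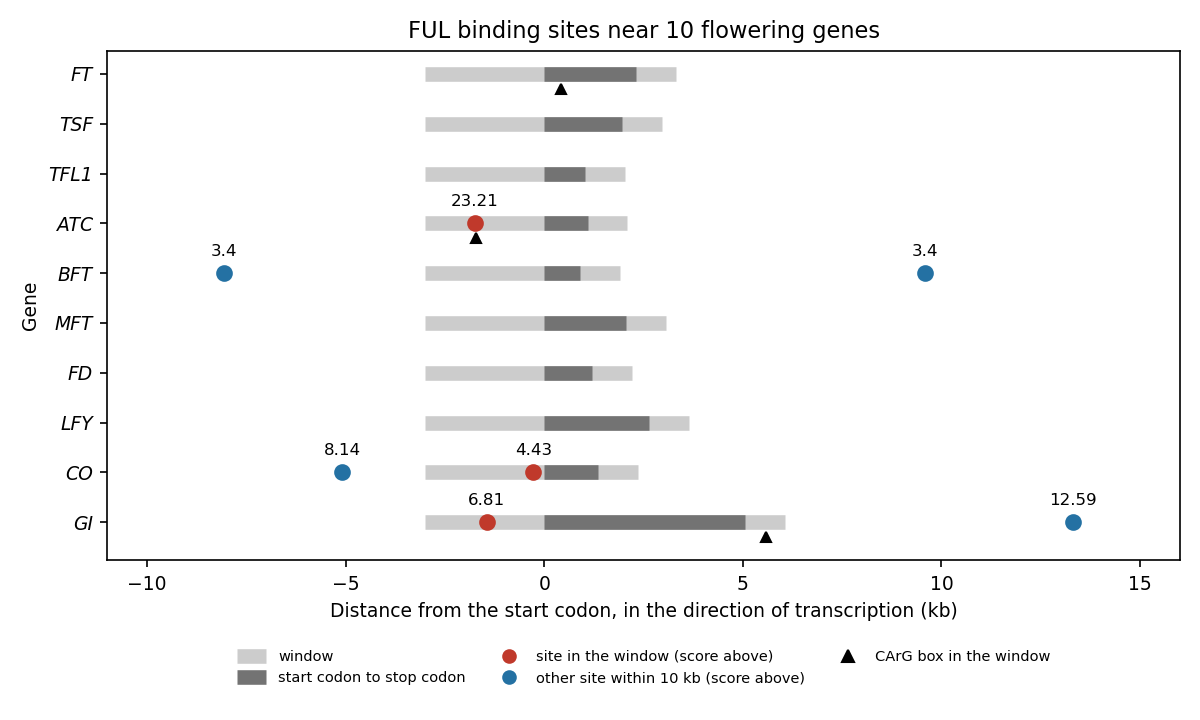
FUL binding sites at the 10 genes, plotted by the distance of the maximum from the start codon in kb, with the score printed above each site. Light bars are the windows and dark bars the stretch from start to stop codon, and triangles are CArG boxes inside the windows. Red points are sites in a window and blue points other sites within 10 kb. The sites of *ATC* (23.21), *GI* (6.81) and *CO* (4.43) fall in windows, and of these the *ATC* site is the one beside a CArG box. The CArG box at the site downstream of *GI* (12.59) lies outside the window and is not drawn.

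*ATC*, a relative of *TFL1* known to delay flowering when overexpressed, had the strongest site of the group, with a score of 23.21. It ranked 80th in the list, as 1 of 9 sites of equal score, and a site scoring at least as high lay in the window of 0.372% of all protein-coding genes. *ATC* (AT2G27550) is a forward-strand gene of chromosome 2, from 11773187 to 11774746, and its site spans 11771425 to 11771867. The maximum, at 11771662, was intergenic, 1755 bp before the start codon and 1525 bp before the transcript start. No other protein-coding gene had this site in its window, and *ATC* was also the nearest protein-coding gene.

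The *ATC* site was 442 bp long, whereas the 9 sites with its score had a median length of 402 bp and those of the whole list a median of 124 bp. The CArG box printed above lies at 11771705 to 11771714, from 43 to 52 bp past the maximum, and it is the only CArG box in the 5093 bp of the *ATC* window. Such a box, at most 100 bp from the maximum, was found for 4.77% of all sites and for 9.34% of the 846 sites scoring at least 5.6. Windows of equal length that lay 3000 bp to either side of a site and touched no site held one in 1.10% of 5536 cases. The GC content of the *ATC* sequence was 33.3%, below the median of 40.8% over all sites.

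*GI*, a large plant-specific protein of the clock and photoperiod pathway, had a site with a score of 6.81. It ranked 598th, as 1 of 155 sites of equal score, and so belonged to the weaker of the sites above 5.6. *GI* (AT1G22770) is a forward-strand gene of chromosome 1, from 8061751 to 8067790, and the site spans 8060818 to 8061044. The maximum, at 8060943, was intergenic, 1455 bp before the start codon and 808 bp before the transcript start. The site was in the window of no other protein-coding gene. Its length of 226 bp was close to the median of 219 bp for sites of this score. The *GI* window measured 9050 bp, the longest of the 10 and longer than the median of 5568 bp for all genes.

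The *GI* sequence held no CArG box, either exact or with 1 mismatch. The evening elements in the printed sequence lie at 8060942 to 8060950, on the maximum itself, and at 8060974 to 8060982 on the reverse strand. This motif was searched for on both strands after the sequence had been seen. It occurred at 1.06% of all sites and in 0.921% of the windows without a site. The *GI* site was the only 1 of the 2831 sites with at least 2 copies, and none of the 5536 windows without a site had as many. The motif and the count of 2 copies were both taken from the *GI* sequence, so that this describes the site and was not tested.

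*CO* had a weak site, with a score of 4.43, which is the median of the list and is shared by 325 sites at rank 1207. It lay below 5.6, and whether it passed the limit of the study is not given in the list. *CO* (AT5G15840) lies on the reverse strand of chromosome 5 from 5170162 to 5173085, and its site spans 5172818 to 5173106. The maximum, at 5172973, lay in the 5′ UTR, 276 bp before the start codon and 112 bp past the transcript start. The site was long for its score, at 288 bp against a median of 137 bp, and 318 of the 325 sites with this score were shorter. It also falls in the window of AT5G15843, a gene annotated on the opposite strand within the *CO* locus, and these genes cannot be told apart as the target. The 201 bp around the maximum held no CArG box, not even with 1 mismatch, and had a GC content of 42.8%.

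**Figure D2:**
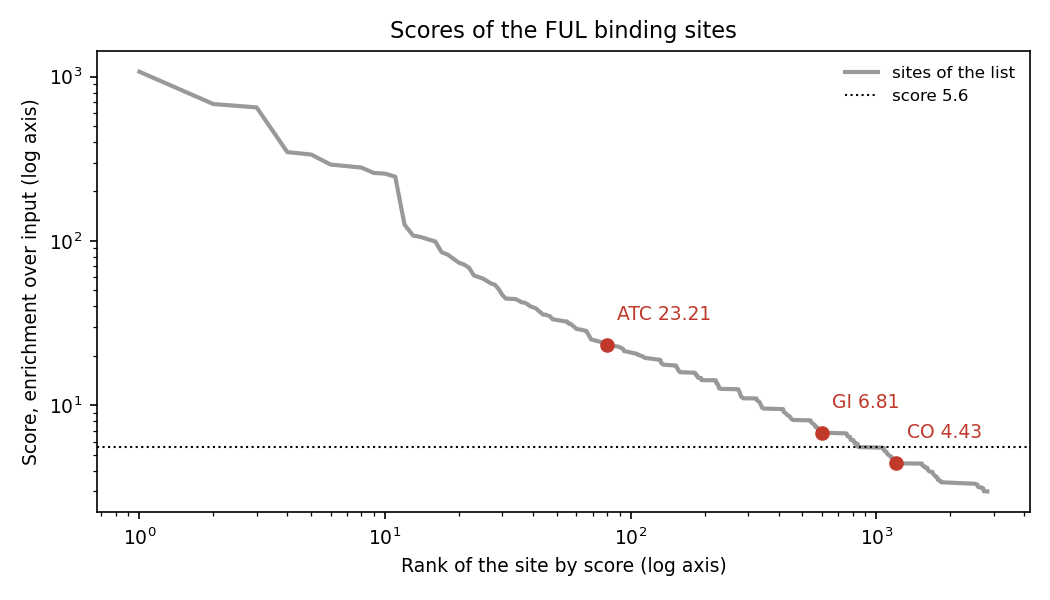
Score of every site of the list against its rank, both on log axes, with the 3 sites of the flowering genes in red and the score of 5.6 as a dotted line. *ATC* (23.21, rank 80) lies well above the line, *GI* (6.81, rank 598) just above it and *CO* (4.43, rank 1207) below it.

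The next gene upstream of *CO* is *COL1* (AT5G15850), a tandem relative of *CO* in the same orientation, and it too had a site, with a score of 8.14 and rank 457. The position and length of the site were close to those at *CO*. The *COL1* maximum, at 5177786, lay 313 bp before the *COL1* start codon and 111 bp past its transcript start, in the 5′ UTR, and the site was 290 bp long. It was 5089 bp upstream of the *CO* start codon and thus outside the *CO* window. The maximum also lay in an exon of AT5G15845, a gene for a long noncoding RNA. AT5G15853 and AT5G15860 had the site in their windows too, and these genes cannot be told apart as the target. The scores of *CO* and *COL1* are single values, and their difference has no replicate check. *COL2* (AT3G02380), the third close member of this group, had no site in its window.

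The most similar stretch of 30 bases without a gap in the 5′ UTR sequences under the *CO* and *COL1* sites had 24 identical bases. In the direction of transcription it was centred 40 bp past the *CO* maximum but 35 bp before the *COL1* maximum, so that it lay on opposite sides of the maxima. It was picked for its similarity and was not compared with unrelated sequence, and it is shown to let the sites be compared, as RefSeq TAIR10.1 sequence in the direction of transcription, with the shared bases in capitals.
CO, chr5:5172919-5172948, reverse strand: AgaAgTgCATAGGAgGAGaTGTTTACACTT
COL1, chr5:5177807-5177836, reverse strand: AagAtTaCATAGGAaGAGgTGTTTACACTT
In *CO* the stretch continues into 5 tandem copies of GTGTAAA, read on the forward strand, where *COL1* has 1. *CO* and *COL1* were also aligned around the maxima and upstream of them. No unrelated sequence was aligned for comparison, so that the shares describe the aligned positions only and similarity was not tested. Alignments had 76.7% identical bases around the maxima, over 73 aligned positions. At 200, 400 and 600 bp upstream of the maxima the shares were 68.9%, 73.9% and 74.3%, over 135, 23 and 74 positions.

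Near *FT*, the gene on which most flowering signals converge, no site was listed in the window of 6312 bp, nor within 10 kb. The nearest site was 22.33 kb upstream of the start codon and had a score of 3.19. *TSF* was in the same position, with its nearest site 21.27 kb downstream of the stop codon at a score of 3.4. In this list, which covers pistils and siliques and no leaves or shoot tips, the florigen genes thus had no site in reach.

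The same held for 4 further genes without a site within 10 kb. For *TFL1*, which keeps the tip of the inflorescence from turning into a flower, the nearest site lay 16.43 kb downstream of the stop codon with a score of 3.0, close to the lowest of the list. For *FD* it lay 12.94 kb downstream with a score of 6.81, and for *MFT* 37.26 kb upstream with a score of 6.81. *LFY* was just beyond the limit, with a site of score 4.43 at 10.47 kb upstream of its start codon.

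*BFT* was the 1 gene of the 7 with a site between its window and 10 kb. Sites with a score of 3.4 lay 8.06 kb upstream of its start codon, in an intron of *ARF2* (AT5G62000), and 8678 bp downstream of its stop codon, in a coding exon of *IQD23* (AT5G62070). Both are among 689 sites that share this score. For *GI*, a site stronger than that in its window lay 8251 bp past the stop codon, with a score of 12.59 and rank 233. It was 298 bp from AT1G22830, and AT1G22810, a gene for an AP2 domain protein, and AT1G22830 had it in their windows.

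A site within 10 kb of the coding region was present for 4 of the 10 genes and for 40.5% of all protein-coding genes, so that the lack of one was common in this list. The median distance from the coding region to the nearest site was 14.01 kb over all protein-coding genes (quartiles 4.91 and 31.51 kb) and 11.71 kb over the 10 genes.

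An exact CArG box occurred in the windows of *FT*, *ATC* and *GI*, with 1 each, and in 31.3% of the windows of all protein-coding genes. The other 7 windows held none. Of the 3 boxes, that of *ATC* lay at a site. The *FT* box is in the first intron of *FT*, which is known to be bound by the MADS domain repressor FLC, and starts 423 bp past the start codon of the longer annotated coding sequence. The *GI* box lies 537 bp past the *GI* stop codon, in the 5′ UTR of the next gene, *PFL* (AT1G22780), 7046 bp from the nearest maximum.

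The site 8251 bp past *GI* also had a CArG box, which covers its maximum. The 4 boxes are shown with 10 bases to each side, on the forward strand in TAIR10.1 and with the box in capitals, because they form 2 pairs with identical boxes.
ATC, at a site with a score of 23.21, chr2:11771695-11771724: attaacatttCCAAAAATGGtaagtccaag
GI, past the stop codon and at no site, chr1:8067974-8068003: ttctcggcatCCAAAAATGGtacgattatc
FT, first intron and at no site, chr1:24331791-24331820: aaattattttCCTTTTTTGGggtatactga
GI, downstream site with a score of 12.59, chr1:8075686-8075715: actttctttgCCTTTTTTGGttacaaattg
Within each pair the 10 bases of the box were the same, and 1 member was at a listed site while the other was not.

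Most copies of both forms were without a site across chromosomes 1 to 5. Counting both strands, 16 of 698 copies of the form of *ATC* and *GI* (2.29%) and 25 of 685 copies of the form of *FT* (3.65%) lay at a site, no base of the box being more than 100 bp from the maximum. Over all 36 forms of the CArG box it was 140 of 7741 copies (1.81%). These were the forms with the most copies, and by the share at sites they took places 10 and 2 of the 36.

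**Figure D3:**
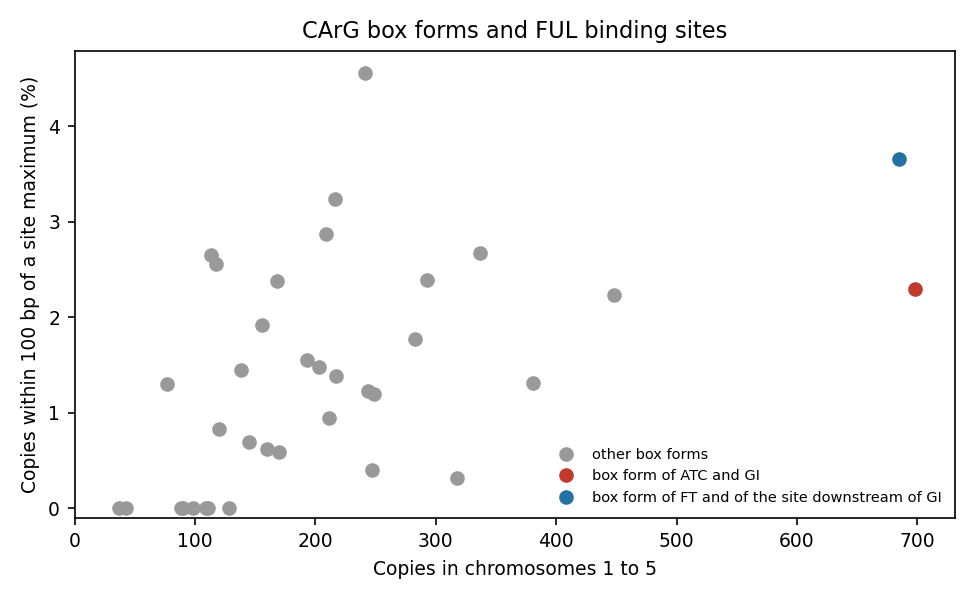
Each point is 1 of the 36 forms of the CArG box, with a form and its reverse complement joined, by its number of copies on chromosomes 1 to 5 and the percentage of copies within 100 bp of a site maximum. The form of *ATC* and *GI* (698 copies, 2.29%) and that of *FT* and the site downstream of *GI* (685 copies, 3.65%) have the most copies.

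The motif CACGTG, the G-box bound by bZIP and bHLH factors, was searched for on both strands in the 201 bp around the maxima. It was found at none of the 3 sites in the windows, at the downstream *GI* site and at 13.1% of all sites, against 2.78% of the windows without a site. CCANTG, a core of LFY binding sites, was found at the *ATC* site alone of the 3, at 25.6% of all sites and in 23.3% of the windows without a site.

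The surroundings of the 10 genes in the flowering network were examined with lists of further genes. The listed genes act on *CO*, *FT* or *LFY*, form the clock or encode 14-3-3 proteins, which are partners of FT and FD. Of the 55 listed genes, 54 were kept, because the annotation does not give the name CDF5 for AT1G69570. The gene left out had 2 sites in its window, the higher with a score of 5.05, and with it the count of genes with a site is 12 of 55, and 4 of 14 for genes that control *CO*. In all, 11 of 54 genes (20.4%) had a site of any score in the window, against 14.0% of all protein-coding genes. At a score of at least 5.6 it was 4 of 54 (7.41%), against 4.47%. These lists too were chosen with earlier results of these data known, and the counts were not tested.

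Among genes that control *CO*, 3 of 13 had a site. *SPA1* (AT2G46340), whose protein works with the ubiquitin ligase COP1 to remove CO in the dark, had the highest score of any listed gene, 25.16, at rank 69. Its maximum, at position 19029802 of chromosome 2, was intergenic and lay 2981 bp upstream of the start codon, at the edge of the window, and AT2G46360 was closer, at 675 bp, although the site was not in its window. This site had a CArG box from 52 to 61 bp past the maximum, printed here with 10 bases to each side because no other site in the windows of the listed genes had one.
SPA1, chr2:19029844-19029873: ttcgcaaaacCCAATTTTGGtcactatgca
*COL1* was described above. *CRY2*, the blue light receptor that stabilises CO, had a site of 3.4. The listed length of this site was 0 bp, against a median of 52 bp for this score, and AT1G04410 also had it in its window. No site was listed for *FKF1*, *COP1* or *CDF1*, which act on the level of CO or its transcript.

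Among genes that control or transport *FT*, 4 of 11 had a site, with 7 sites in all. *TEM1* (AT1G25560), a repressor of *FT*, had 3 of them. These had a score of 8.14 at 815 bp upstream of the start codon, of 5.57 inside the coding sequence 8 bp past the start codon, and of 3.4 at 2958 bp upstream. Its relative *TEM2* (AT1G68840), which also represses *FT*, had weak sites of 5.0 and 4.43 at 2693 and 1441 bp upstream. The site at 2693 bp was also in the window of AT1G68830, which was nearer, at 2087 bp. *NF-YB2* (AT5G47640), a subunit of the NF-Y complex that helps CO to activate *FT*, had a site of 7.83 at 679 bp upstream. AT5G47635 also had this site in its window. *NF-YC3* had a site of 5.57 that lay in a coding exon of the neighbouring gene AT1G54820. The *NF-YC3* site measured 22 bp, against a median of 192 bp for this score. None of these 7 sites had a CArG box in the 201 bp around the maximum.

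Clock genes had weak sites. *LHY*, *PRR5* and *PRR7*, 3 of 10 genes, had scores of 3.4, 3.4 and 4.43, and their sites measured 12, 2 and 47 bp, against medians of 52 bp for the score of 3.4 and 137 bp for 4.43. The *LHY* site was also in the window of AT1G01070. That of *PRR7* lay in an exon of the tRNA gene AT5G02815. It was nearer to AT5G02820, at 103 bp, whose window held it too. Of the 14-3-3 genes 1 of 10 had a site, *GRF8*, with a score of 4.43 in an intron. AT5G65440 also had the *GRF8* site in its window. None of the 10 genes that control *LFY* had a site. Among them were *UFO*, the cofactor of LFY, and *MP*, the auxin response factor that activates *LFY*. Of all protein-coding genes 14.0% had a site in the window, and with lists of 10 genes these counts were not tested. The names of genes below a score of 5.6 and of genes without a site were chosen after the values were seen.

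**Figure D4:**
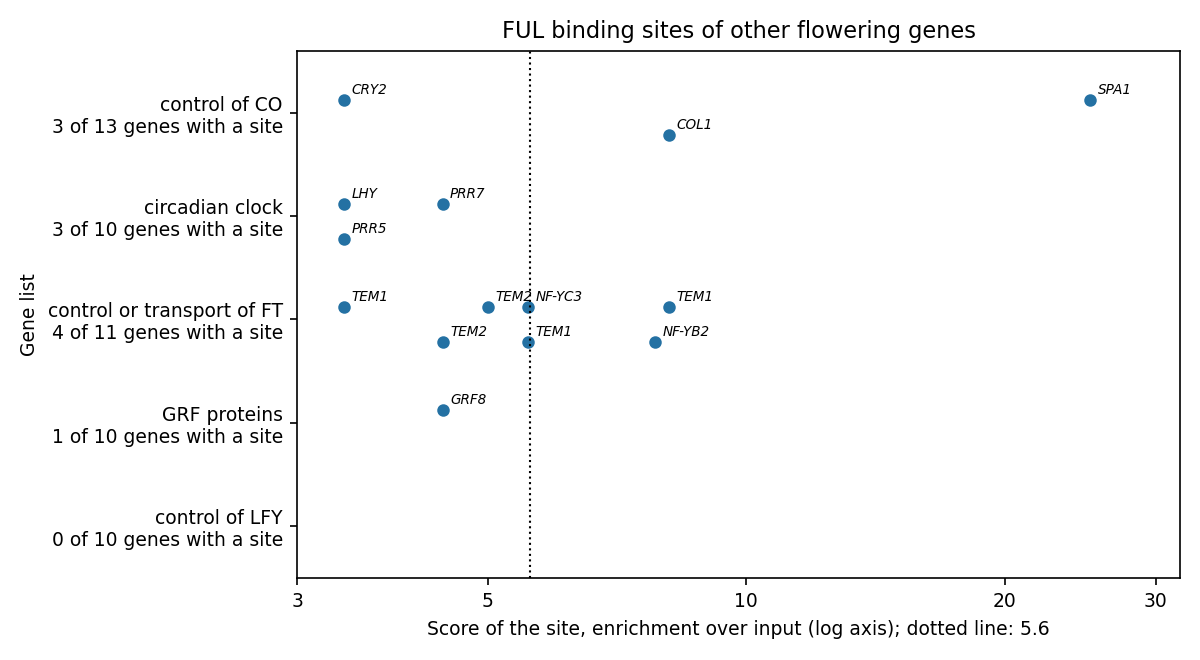
Scores of the FUL binding sites in the windows of other flowering genes, by list, on a log axis, with 1 point per site and the score of 5.6 as a dotted line. Points are offset vertically for legibility. *SPA1* (25.16) stands apart, and *COL1* (8.14), the strongest *TEM1* site (8.14) and *NF-YB2* (7.83) lie just above the line. The other *TEM1* sites (5.57 and 3.4) lie below it. So do the sites of *CRY2*, *TEM2*, *NF-YC3* and the clock and 14-3-3 (*GRF*) genes.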

How the data were processed

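FUL-GFP ChIP and input libraries were sequenced, 2 samples each. Per the methods of the study, the authors aligned reads with SOAPv2 to the TAIR9 genome, allowing 2 mismatches and no gaps, kept nuclear reads with a single match, and called sites against the input with the R package CSAR. CSAR settings and versions are not given in the sources used here. The study names significant sites by a false discovery rate limit, but the deposited list is longer than that set and has no such column, so this limit was not applied. The deposited score is 1 value per site with both replicates combined. The other deposited columns used are the position of the maximum and the length in bp. The list has no column of values for a single sample, and depth is unknown.

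Genes and sequences came from RefSeq TAIR10.1, whose chromosomes held the ends of all 2831 sites. The outermost start and stop codons of a gene's models bounded its window. Motifs were searched in the 201 bp around the maximum. The 10 genes, the lists and the score of 5.6 were chosen with earlier results of these data known. All 10 genes, listed genes with a site of at least 5.6, and genes sharing or neighbouring a site were named. Counts were set beside the share of all genes, without a test. Window, gene ends, assignment, score, merging and motif search were varied. Steps were tested on simulated data. Python 3.11.15, numpy 2.4.6, pandas 2.3.3, biopython 1.88 and matplotlib 3.10.9 were used.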

Additional observations from a re-analysis of the deposited data

How the results depend on the processing

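The sites of *ATC*, *GI* and *CO* were counted under each window, gene end, assignment and merging tried, so that 3 genes with 3 sites remained, and 2 genes at a score of at least 5.6. At or above the upper quartile of all scores, 6.81, 2 of the 10 genes were left. The background moved more, from 3.94% of protein-coding genes at that score to 21.8% with 5000 bp upstream and 3000 bp downstream. Of 29 alternatives 27 stayed within 1.5 times. The listed pathway genes with a site fell from 11 to 4 at a score of at least 5.6. They fell to 8 when a site counted for its nearest protein-coding gene only. *SPA1* was among the genes lost then, because AT2G46360 was nearer to its site. With all 55 listed genes, an alternative added after seeing the data, 12 genes had a site. With 50 bp searched to each side of the maximum, 0 of the 3 sites had a CArG box, against 1 with 100 bp, because the *ATC* box ends at 52 bp. No paired analysis was possible because the list holds no values per replicate, and leaving out a replicate was not possible. The plants were of mixed Col/Ler origin, while the sequences are those of Columbia. The site list sets a floor of 2.99, and whether genes without a site were bound more weakly is not detectable in it.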
